A study of Mus musculus with 2 samples.

Results

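Small RNA tags of 25 to 27 nt with at least 1000 reads, summed over a control and a PD library of mouse embryonic stem cells, numbered 698 of the 1695245 distinct tags in the libraries. A tag is a distinct read sequence. The members were chosen by their length and by their summed reads, and not by the difference between the libraries. Tags that shared their first 18 bases were merged into 1 source, which gave 433 sources. The cells were J1 mESCs, a pluripotent cell line of the mouse, grown on gelatin without feeder cells in serum replacement medium with 1000 U/mL LIF, a cytokine that maintains self-renewal. The control cells received DMSO, the solvent, and the PD cells received 1 μM PD0325901 (PD), an inhibitor of the kinase MEK that blocks ERK1/2 signaling, both for 24 h. RNA of several independent experiments was pooled before sequencing, so that 1 library stood for each treatment. A difference between the libraries therefore had no replicate check, and every interval below is an exact Clopper-Pearson 95% interval that covers counting error only, while PCR copies of 1 molecule may be counted more than once.

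The libraries held 18870345 control and 20944808 PD clean reads, in which the limit of 3 reads equals 0.159 and 0.143 reads per 1000000 clean reads (RPM). The share of reads of 25 to 27 nt was 18.9% with DMSO (95% interval 18.91 to 18.95) and 20.3% with PD (95% interval 20.29 to 20.33). The members took 2797997 reads (14.8%) of the DMSO library and 3373235 (16.1%) of the PD library, that is 78.3% and 79.3% of all reads of 25 to 27 nt. The RPM of all members together was 1.09 times as high in the PD library as in the control. Of the tags, 280 were 25 nt long, 216 were 26 nt long and 202 were 27 nt long. The member with the fewest reads had 542 control and 458 PD reads, and the next tag outside the rule had 495 and 502.

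Mature miRNAs are mostly a few bases shorter than these tags. They are cut from hairpin precursors by Drosha and Dicer and guide Argonaute proteins to target mRNAs through their seed, bases 2 to 8. Reads just above that size in a total small RNA library commonly come from stable structural RNAs, such as ribosomal RNA (rRNA), transfer RNA (tRNA), small nucleolar RNA (snoRNA) and Y RNA, and the germline piRNAs, which often begin with T (U in RNA), also lie near this length. Each tag was therefore described by its sequence, its first base and the transcript that it matched.

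The 12 sources with most reads are shown first, because they held 44.98% of all member reads. Each is given by its most frequent tag, 5′ to 3′, with the 18 bases that define the source in capitals, and sources are numbered by their summed reads.
Source 1: AGGTGTAGAATAAGTGGGaggcccccg
Source 2: GCGTGGGAAATGTGGCGTacggaag
Source 3: AGAGGTGTAGAATAAGTGggaggccc
Source 4: TCCCTGGTCTAGTGGTTAggattcgg
Source 5: TGAATTGCAGGACACATTgatcatcg
Source 6: GCGGCGACTCTGGACGCGagccggg
Source 7: GTGTAGAATAAGTGGGAGgcccccg
Source 8: AATTGCAGGACACATTGAtcatcga
Source 9: CGTGGGAAATGTGGCGTAcggaaga
Source 10: GGTTCCATGGTGTAATGGttagcac
Source 11: GAGGTGTAGAATAAGTGGgaggccc
Source 12: AGAGGGAGAGGACACAGTctgagtgg

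Source 1 alone held 15.4% of the member reads, in 8 tags. It had 442303 control reads (23439 RPM) and 506497 PD reads (24183 RPM), a PD to control ratio of 1.03 (95% interval 1.03 to 1.04). Sources 3, 7 and 11 overlapped it. Relative to source 3, source 11 began 1 base, source 1 began 2 bases and source 7 began 4 bases downstream. Source 3 had 7228 RPM with DMSO and 8158 RPM with PD (ratio 1.13, 95% interval 1.12 to 1.14). Source 7 had 2329 and 3085 RPM (ratio 1.32, 95% interval 1.31 to 1.34). Source 11 had 2617 and 2546 RPM (ratio 0.973, 95% interval 0.961 to 0.985). These overlapping sources thus differed in ratio, and on which side of 1 source 11 lay depended on the denominator, as it was 1.03 by TMM and 1.18 relative to the clean reads of 20 to 24 nt.

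Source 2 had 9854 RPM with DMSO and 9466 RPM with PD (ratio 0.961, 95% interval 0.955 to 0.967), and source 9, which began 1 base downstream, had 2643 and 2563 RPM (ratio 0.970, 95% interval 0.958 to 0.982). Source 5 had 4414 and 3857 RPM (ratio 0.874, 95% interval 0.865 to 0.882). Source 8, which began 2 bases downstream of source 5, had 2796 and 2440 RPM (ratio 0.873, 95% interval 0.862 to 0.884). Within each of these overlapping pairs, the ratios of the 2 sources were close. Source 6 had 4010 RPM with DMSO and 4000 RPM with PD (ratio 0.998, 95% interval 0.988 to 1.01), which counting error cannot tell apart. Source 10 had 2348 and 2806 RPM (ratio 1.20, 95% interval 1.18 to 1.21). Over reads of any length, the starts of sources 6 and 10 had ratios of 0.917 and 1.01, and that of source 4 had 2.08. Source 4 stood apart from the other leading sources, with 2647 RPM with DMSO and 6639 RPM with PD (ratio 2.51, 95% interval 2.48 to 2.53). Of the 12, it was the only one past a fold of 1.5 in RPM. The direction of the leading sources depended on the denominator. Relative to the clean reads of 20 to 24 nt, all 12 had ratios above 1, from 1.05 for source 12 to 3.04 for source 4, and source 7 passed the fold with 1.60.

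Sources that shared any run of 18 bases were joined to count the stretches of RNA they came from. The 433 sources formed 178 stretches, of which 94 held a single source and the largest held 16. The stretch led by source 1 held 10 sources and 25.3% of the member reads (ratio 1.08), that led by source 2 held 8 sources and 8.64% (ratio 0.976), and that led by source 4 held 7 sources and 5.33% (ratio 1.86). The sources of 1 stretch are not independent measurements of a treatment. Within the stretch of source 1, the ratios of the sources ran from 0.609 to 1.61.

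By transcript class, 340 of the 433 sources (78.5%) had no perfect sense match in GENCODE M21 transcripts (mouse build GRCm38) or RefSeq miRNA hairpins. These sources held 83.0% of the control member reads (95% interval 83.00 to 83.08) and 84.6% of the PD member reads (95% interval 84.57 to 84.64). All of the 12 leading sources except source 12 were among them. Their summed RPM was 1.11 times as high in the PD library, with a median ratio of 1.01 and a range from 0.399 to 3.57. Sequences of nuclear tRNAs and of most of the 45S rRNA repeat were not used here, so no tRNA or 28S rRNA could be assigned, and 25 of the 340 matched a transcript in antisense orientation only. The share without a match was 78.5% among sources of abundant tags of 18 to 19 nt, 69.6% among those of 20 to 24 nt and 82.3% among those of 28 to 32 nt. A lack of match was thus not particular to 25 to 27 nt.

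The largest annotated group was Gm42418, a long noncoding RNA gene at chr17:39846958-39848788 on the plus strand of GRCm38. This locus is known to overlap a copy of the rRNA repeat and to collect reads of 18S rRNA, the RNA of the small ribosomal subunit. It matched 63 sources, which lay between bases 62 and 1244 of its single exon of 1831 bases. They had 311007 control and 339382 PD reads, a ratio of 0.983, and a median ratio of 1.01. The values of its sources ranged from 0.447 to 2.60, with 6 (9.52%) higher and 7 (11.1%) lower in the PD library by at least 1.5-fold, against 13.9% and 14.7% of the abundant sources of any length. The Gm42418 sources that are described next are shown because they were among the 5 highest or 5 lowest ratios of all sources.
Source 425, chr17:39847950-39847974: CCCATTCGTGATGGGGATcggggat
Source 186, chr17:39847342-39847367: ACGGACCAGAGCGAAAGCatttgcca
Source 230, chr17:39847210-39847234: CGCAGCTAGGAATAATGGaatagga
Source 391, chr17:39848142-39848166: TCTAGAGGAAGTAAAAGTcgtaaca

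Source 425 had 264 control and 763 PD reads (ratio 2.60, 95% interval 2.26 to 3.01). On the low side, source 186 had 2546 and 1377 reads (ratio 0.487, 95% interval 0.456 to 0.521), source 230 had 1815 and 974 reads (ratio 0.484, 95% interval 0.447 to 0.523), and source 391 had 764 and 379 reads (ratio 0.447, 95% interval 0.394 to 0.506). Over reads of any length, the starts of sources 425, 186, 230 and 391 had ratios of 2.17, 0.696, 0.696 and 0.647. The ratio also differed between stretches of the transcript. Between bases 245 and 346, 16 sources had a summed ratio of 0.802 (95% interval 0.794 to 0.810), and between bases 1155 and 1244, 11 sources had 0.893 (95% interval 0.885 to 0.901). Between bases 590 and 639, 4 sources had 1.36 (95% interval 1.33 to 1.38), and between bases 673 and 698, 2 sources had 2.08 (95% interval 1.98 to 2.19). Between bases 62 and 108, 13 sources had 1.085, with single sources from 0.813 to 1.55. Single sources ran from 0.484 to 1.46 between bases 245 and 346, and from 0.447 to 1.21 between bases 1155 and 1244. They ran from 1.265 to 1.93 between bases 590 and 639, and from 1.77 to 2.14 between bases 673 and 698. By summed RPM of the member tags, the higher library thus differed between stretches of 1 annotated RNA, but sources within a stretch could also lie on both sides of 1. Whether a stretch kept its side of 1 over reads of any length, or under another denominator, was not tested.

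The snoRNAs gave 10 sources, with 6518 RPM with DMSO and 6513 RPM with PD (ratio 0.999) and source ratios from 0.657 to 1.25. Source 12, shown above, was the leading one. It matched bases 187 to 212 of the 214 bases of Rnu3a, a gene of the U3 snoRNA that acts in processing of the rRNA precursor, at chr10:40258653-40258678 in exon 1 on the plus strand. It had 51557 control and 49766 PD reads (2732 and 2376 RPM, ratio 0.870, 95% interval 0.859 to 0.881). Its ends were narrow, since 98.2% (DMSO) and 98.9% (PD) of the reads that began with its 18 bases were 25 to 27 nt long. All 7 sources of U3 genes ended at most 2 bases before the end of their transcript. The other 3 snoRNA sources began at bases 1, 2 and 4 of Gm23212, a predicted snoRNA that lies within Gas5, and had ratios of 0.657 (95% interval 0.601 to 0.719), 1.25 (95% interval 1.23 to 1.27) and 1.10 (95% interval 1.08 to 1.12). Here again, a shift of the start by 1 to 3 bases went with ratios on both sides of 1.

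The remaining annotated classes gave few sources, and the leading one of each is shown, with its bases of the defining start in capitals.
Source 113, Rny1, chr6:47788071-47788097, minus strand: TTCTCACTACTGCACTTGactagtctt
Source 302, Lars2, chr9:123462138-123462164, plus strand: ATGATGTGTTGTTGCCATggtaatcct
Source 315, Gm23444, chr11:83271593-83271618, plus strand: TGGATTTTTGGAACTAGGagttggaa
Source 345, Rn5s, chr8:123598180-123598206, minus strand: GTTAGTACTTGGATGGGAgaccgcctg

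Rny1 encodes a Y RNA, a small noncoding RNA bound by the Ro60 protein, and source 113 covered bases 84 to 110 of its 112 bases. It had 3269 control and 3900 PD reads (ratio 1.08, 95% interval 1.03 to 1.13). The second Rny1 source, at bases 1 to 27, had 635 and 509 reads (ratio 0.722, 95% interval 0.641 to 0.813). By RPM of the member tags, the end and the start of this Y RNA thus had ratios on opposite sides of 1. Counted over any length, reads that began like source 113 had a ratio of 0.955. Lars2, the gene of mitochondrial leucyl-tRNA synthetase, was matched in the 3′ untranslated part of exon 21 by source 302. This source had 762 and 859 reads (ratio 1.02, 95% interval 0.920 to 1.12). Most of the rRNA repeat was not used for matching, so whether source 302 came from Lars2 or from rRNA was not tested. Source 315 matched Gm23444 and 4 other annotated genes of the same small nuclear RNA sequence, and had 834 and 671 reads (ratio 0.725, 95% interval 0.654 to 0.803). Source 345 matched 51 annotated genes, among them Rn5s, a gene of 5S rRNA, with 675 and 634 reads (ratio 0.846, 95% interval 0.758 to 0.945). In these multicopy families the copy of origin is uncertain. None of the 12 sources of the Y and 7SL RNAs, snRNA, 5S rRNA and protein-coding classes reached a fold of 1.5 in either direction. Among all 433 sources, 10.4% were higher and 7.16% lower, so that so few sources do not set these classes apart.

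Only 5 sources matched a miRNA hairpin over their whole length (1.15%, against 14.0% of the sources of abundant tags of 20 to 24 nt). They held 0.835% of the member reads with DMSO and 0.789% with PD, with a summed ratio of 1.03. Their most frequent tags are shown with the seed in capitals. RefSeq gives a mature form of 25 nt for miR-182-5p and miR-541-5p, identical to the tag, and the other 3 tags carried 2 or 3 further hairpin bases at the 3′ end of the RefSeq mature form.
miR-182-5p: tTTGGCAAtggtagaactcacaccg
miR-541-5p: aAGGGATTctgatgttggtcacact
miR-290a-5p: aCTCAAACtatgggggcactttttt
miR-103-3p: aGCAGCATtgtacagggctatgaaa
miR-181a-5p: aACATTCAacgctgtcggtgagttt

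The miR-182-5p source, from the miR-183 cluster at chr6:30165962-30165986 on the minus strand, led the class with 15850 control and 19879 PD reads (840 and 949 RPM, ratio 1.13, 95% interval 1.11 to 1.15), summed over 5 tags. Its RefSeq form of 25 nt alone had 7778 and 8742 reads (ratio 1.01, 95% interval 0.982 to 1.04), which counting error cannot tell apart. The source of miR-541-5p, which lies in the imprinted Dlk1-Dio3 region of chromosome 12, had 3194 control and 2265 PD reads (ratio 0.639, 95% interval 0.605 to 0.675). By RPM of the member tags it was the only miRNA source past 1.5-fold. Reads of any length with its start numbered 8776 in the control and 6763 in the PD library, lower in RPM but not past the fold. miR-290a-5p belongs to a cluster that is characteristic of mouse embryonic stem cells. Its long tags had 2855 and 2816 reads (ratio 0.889, 95% interval 0.843 to 0.937), and its RefSeq mature form of 22 nt had 55458 and 50179 reads (ratio 0.815, 95% interval 0.805 to 0.825). All reads with that start numbered 217114 in the control and 199372 in the PD library, so this marker of the cell type was abundant in both. The miR-103-3p source had 864 and 1018 reads (ratio 1.06, 95% interval 0.969 to 1.16), and that of miR-181a-5p had 592 and 624 reads (ratio 0.9497, 95% interval 0.847 to 1.06), both within counting error of equal RPM. The RefSeq form of miR-103-3p had 69591 and 68150 reads (ratio 0.882, 95% interval 0.873 to 0.892). That of miR-181a-5p had only 40 and 26 reads, fewer than its long tag (ratio 0.586, 95% interval 0.343 to 0.9835).

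A further 5 sources began with a miRNA but did not match its hairpin at the last bases, and they are listed with the class without a match. They were long tags of miR-181d-5p, miR-298-5p, miR-140-3p, miR-191-5p and miR-423-5p, which held the whole RefSeq mature form followed by 2 to 4 bases. The seed of miR-181d-5p is that of miR-181a-5p above. Ratios of these long tags ran from 0.886 for miR-181d-5p (7707 and 7577 reads, 95% interval 0.858 to 0.914) to 1.40 for miR-140-3p (493 and 764 reads, 95% interval 1.25 to 1.57). For miR-140-3p, the RefSeq form of 21 nt went the other way, with 11194 and 7122 reads (ratio 0.573, 95% interval 0.556 to 0.591), while all reads with this start numbered 93189 and 121694 (ratio 1.18).
miR-140-3p, RefSeq mature form: tACCACAGggtagaaccacgg
miR-140-3p, long tag: tACCACAGggtagaaccacggacaa

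Between the libraries, 45 of the 433 sources (10.4%) were higher in the PD library by 1.5-fold or more, against 13.9% of the 1528 sources of abundant tags of any length. In the other direction, 31 sources (7.16%) were lower by 1.5-fold or more, against 14.7% of the sources of any length. Both shares were below those over all lengths, which varied with the length of the tags. The shares higher and lower were 22.2% and 21.3% among sources of abundant tags of 18 to 19 nt. They were 3.89% and 23.1% at 20 to 24 nt, and 64.2% and 0.823% at 28 to 32 nt. The median ratio of the 433 sources was 1.00, with quartiles of 0.829 and 1.23, and that of all abundant sources was 0.917. The split of the counts depended on the denominator. Relative to the clean reads of 20 to 24 nt, 108 sources were higher and 9 lower, and relative to those of 25 to 27 nt, 35 were higher and 52 lower. The sources past 1.5-fold came from 28 stretches on the higher side and 24 on the lower side. Of the 45 higher sources, 39 had no transcript match, 6 matched Gm42418, and 27 were also past 1.5-fold when reads of any length with the same start were counted. Of the 31 lower sources, 15 were.

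The 5 highest ratios belonged to source 4, source 425 of Gm42418, given above, and 3 further sources without a match. The 5 lowest belonged to 3 sources of Gm42418, given above, and 2 without a match. The sources not yet shown are given here with their defining start in capitals.
Source 346: GCGTGTGGTATAGTGGTGagcatagct
Source 239: GCGTGGTATAGTGGTGAGcatagct
Source 82: TCCCTGTGTCTAGTGGTTaggattcgg
Source 400: CGGACGCTACGCCGCGACgagtaggag
Source 261: ATGGGCGAGTGCCGTTCCgaaggga

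Source 346 had 263 control and 1043 PD reads (13.9 and 49.8 RPM), the highest ratio of all sources at 3.57 (95% interval 3.12 to 4.11). Source 239, of the same stretch, had 573 and 2068 reads (ratio 3.25, 95% interval 2.96 to 3.57). Source 82, of the stretch of source 4, had 3279 and 9653 reads (174 and 461 RPM, ratio 2.65, 95% interval 2.55 to 2.76). The highest ratios without a match thus came from 2 stretches. On the low side, source 400 had 766 control and 339 PD reads (40.6 and 16.2 RPM), the lowest ratio of all sources at 0.399 (95% interval 0.350 to 0.454), and source 261 had 1405 and 745 reads (ratio 0.478, 95% interval 0.437 to 0.523). Over reads of any length, the starts of sources 346, 239 and 82 had ratios of 3.56, 3.44 and 2.27, and those of sources 400 and 261 had 0.522 and 0.494. The 406 sources outside the 27 chosen by rank, ratio or class had ratios from 0.491 to 2.23.

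Several of the high sources shared letters that resemble box A, the first internal promoter element that RNA polymerase III uses in tRNA genes and that lies near the 5′ end of the tRNA. The consensus of box A, 11 bases long, was searched on the sense strand of the most frequent tag, with its start no later than base 9. It was present in 26 of the 433 sources (6.0%), against 3.55%, 4.07% and 14.8% of the sources of abundant tags of 18 to 19, 20 to 24 and 28 to 32 nt and 2.45% of all distinct tags of 25 to 27 nt. None of the 26 matched a transcript used here. The match describes letters only and assigns no tRNA, and the search was chosen after the sequences and ratios had been seen. The 26 sources had 257161 control reads (13628 RPM) and 458126 PD reads (21873 RPM), a ratio of 1.61, with a median of 1.39 and a range from 0.692 to 3.57. Of them, 11 were higher by 1.5-fold and 0 were lower. The 407 other sources had a summed ratio of 1.03 and a median of 0.988, with 34 higher and 31 lower. The box A sources made up 9.19% of the control member reads and 13.6% of the PD member reads.

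The box A sources were then grouped by where the box began. In 14 sources it began at base 8, and these had 7462 RPM with DMSO and 9252 RPM with PD (ratio 1.24, median 1.06, 3 higher by 1.5-fold). In 11 sources it began before base 8, and these had 6114 and 12545 RPM (ratio 2.05, median 1.70, 8 higher by 1.5-fold). In the remaining source it began at base 9, and the ratio was 1.465 (980 and 1594 reads). For 10 of the 11, a longer abundant tag had the same last bases, a box A at base 8 and 1 to 4 further bases in front of the box. The triplets of tags of 2 sources are shown to compare them. In the shorter tag the capitals mark box A, and in the longer tag they mark the bases that the shorter one lacked. They are placed at a position that the letters allow, which need not be the only one. The third tag is the longer tag ended at the length of the shorter one.
Source 14, shorter tag: ggcttTGGTCTAGGGGtatgattctc
Longer tag: ggctCGttggtctaggggtatgattctc
Same-length tag: ggctcgttggtctaggggtatgattc
Source 239, shorter tag: gcgTGGTATAGTGGtgagcatagct
Longer tag: gcgTTGGtggtatagtggtgagcatagct
Same-length tag: gcgttggtggtatagtggtgagcat

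For source 14, the shorter tag lacked 2 bases and had 27239 and 48638 reads (ratio 1.61, 95% interval 1.59 to 1.63). Its longer tag of 28 nt had 35019 and 64447 reads (ratio 1.66, 95% interval 1.64 to 1.68), and the tag of its own length had 5927 and 4784 reads (ratio 0.727, 95% interval 0.700 to 0.756). In this triplet, the ratio of the shorter tag was thus nearer to that of the longer tag with the same 3′ end than to that of the tag of its own length. For source 239, the shorter tag lacked 4 bases and had a ratio of 3.25, the longer tag had 11638 and 61614 reads (ratio 4.77, 95% interval 4.68 to 4.87), and the tag of its own length had 369 and 491 reads (ratio 1.20, 95% interval 1.05 to 1.38). Over the 10 triplets, the shorter tag had a higher ratio than the tag of its own length in 9, and in 8 of them its interval lay wholly above. It exceeded the longer tag in 1. The ratio of the shorter tag was nearer to that of the tag of its own length for sources 245, 259 and 281, and nearer to that of the longer tag in the other triplets. The exception in the first comparison was source 245, with 1.70 (95% interval 1.56 to 1.84) for the shorter tag and 1.87 (95% interval 1.495 to 2.35) for the tag of its own length, whose intervals overlapped. The tags of 1 triplet share sequence and are not independent. Nor are all triplets, since those of sources 14 and 33, of 239 and 346, and of 245 and 259 shared their longer tag. Which molecule gave the shorter tags was not tested.

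From 21 to 32 nt, the ratio of all clean reads rose with the length of the read, and that of the member tags rose from 25 to 27 nt. Over all clean reads, the PD to control ratio of RPM was 0.763 at 21 nt, 0.948 at 25 nt, 1.11 at 26 nt, 1.21 at 27 nt, 1.61 at 28 nt, 2.40 at 29 nt and 4.53 at 30 nt. The median ratio of the member tags was 0.918 at 25 nt, 1.01 at 26 nt and 1.17 at 27 nt. The same order was seen within sources. Of 88 sources with tags of 25 and of 27 nt, 76 had a higher ratio at 27 nt, and the ratio at 27 nt was in the median 1.39 times that at 25 nt. It was 1.12 times from 25 to 26 nt (98 of 119 sources higher at 26 nt) and 1.20 times from 26 to 27 nt (85 of 101 higher at 27 nt). For source 1, the ratio of its start was 0.256 at 21 nt (36772 and 10459 reads), 0.946 at 24 nt, its most frequent length (781511 and 820206 reads), 0.869 at 25 nt (135409 and 130606 reads), 1.15 at 27 nt (189464 and 241275 reads) and 3.60 at 30 nt (33305 and 133006 reads), so the rise was not seen at every step. With 1 library per treatment, a difference in read length between the libraries and an effect of PD on these RNAs cannot be told apart. Relative to all clean reads of the same length, a denominator added after the data had been seen, 25 sources were higher and 50 lower by 1.5-fold, and the median ratio was 0.954. On that scale, the box A sources had a median of 1.25 (7 higher, 1 lower), and those with the box before base 8 had 1.495, those with the box at base 8 had 0.984, and the other sources had 0.941.

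The reads of a source often ended outside 25 to 27 nt. Among all reads with a source's 18-base start, the most frequent length was 25 to 27 nt in 223 sources, shorter in 171 and longer in 39. In the median source, 40.9% of the control and 41.0% of the PD reads with that start were 25 to 27 nt long, and 26.6% and 26.5% ended at the end of the most frequent tag. The mean length was longer in the PD library in 377 sources, shorter in 50 and equal in 6, with a median difference of 0.32 nt. The share ending at 25 to 27 nt differed widely. It was 30.6% and 31.4% for source 1, whose most frequent length was 24 nt, 94.5% and 95.9% for source 2, and 76.4% in the control but 91.9% in the PD library for source 4.

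The first base of the sources was G in 125 (28.9%), C in 123 (28.4%), A in 111 (25.6%) and T in 74 (17.1%). A first T, which is common in piRNAs and in miRNAs, was thus the least frequent. Its share was 21.1%, 25.1% and 14.8% among sources of abundant tags of 18 to 19, 20 to 24 and 28 to 32 nt. Counted by reads, A led with 34.7%, followed by G with 33.3%, C with 16.8% and T with 15.2%, and sources 1, 3, 8 and 12 begin with A. The median ratio was 0.9496 for sources with a first A (5 higher and 12 lower by 1.5-fold), 0.976 for C (15 and 11), 1.04 for G (13 and 4) and 1.07 for T (12 and 4). These medians lay inside the quartiles of all sources, but the quartiles describe single sources and cannot show whether the groups differ. Over all 433 sources, 10.4% were higher and 7.16% lower by 1.5-fold. The groups by first base differ in size, and a link between first base and direction was not tested.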

How the data were processed

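Small RNA was purified and ligated to adapters, and the authors removed low-quality, adapter and short reads. They deposited for each library the raw read count of each distinct tag, with its length, and a last line without a tag (the total) was left out here. The submitters' notes name build mm9, but the deposited counts hold no coordinates, and positions are those of GENCODE M21 on GRCm38. The members and lists were chosen with earlier results of these data known. Counts were divided by clean reads (RPM), and tags were matched over their whole length to GENCODE M21 transcripts and RefSeq hairpins with Python 3.11.15. Ratios have Clopper-Pearson 95% intervals (SciPy 1.17.1). The quasi-likelihood test of edgeR needs replicates and was not run, and no p-value is given. TMM (edgeR 4.0.16) and size factors (DESeq2 1.42.0) over tags with at least 10 reads served as other denominators. Sources given with values were the 12 with most reads, the 5 highest and 5 lowest ratios and the leader of each class, apart from miRNAs, triplets and stretches, chosen after values were seen. Matching and intervals were checked on simulated data. Denominators, merging, read minimum, fold, thinning and matching were varied. Depth was 18870345 and 20944808 reads. One source chosen by this rule is not reported here.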

Additional observations from a re-analysis of the deposited data

How the results depend on the processing

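No paired analysis was possible because each treatment had 1 library. With 1 library per treatment, leaving out a replicate was not possible either. Main values were 45 sources higher, 31 lower and a median ratio of 1.00. Relative to clean reads of 20 to 24 nt these were 108, 9 and 1.21, relative to reads matching a miRNA hairpin 85, 12 and 1.15, by size factors 69, 16 and 1.08, and relative to reads of the same length 25, 50 and 0.954. By TMM 19 were lower and the median was 1.06, and relative to clean reads of 25 to 27 nt 52 were lower and the median was 0.933. Without merging 80 were higher and 58 lower of 698 tags, and joined by any run of 18 bases 16 and 11 of 178 stretches. With a minimum of 500 reads 77 were higher and 59 lower of 705 sources, and with 2000 reads 11 were lower of 253. At a fold of 2, 9 were higher and 6 lower. Over reads of any length the median was 0.940. Sources without a match held 83.9% of member reads, and 82.3% with 1 mismatch, 82.26% on either strand and 82.5% over the first 18 bases. Weighted by reads, the leading first base was A with 34.7%. Settings that count more or fewer tags or sources change the counts by construction. A single denominator per library multiplies every ratio by the same factor, which also moves the counts and the median by construction. Why the libraries differed in these denominators was not tested, nor was the cause of the other changes. Merging by 15 or 20 bases, thinning, counting all tags of 25 to 27 nt with the same start and leaving out miRNA or box A sources kept the counts within 1.5 times and the median between 0.965 and 1.04. Of 10 sources past 1.5-fold given by rank, ratio or class, 10 stayed past it under each denominator and 8 over reads of any length. In the 9 settings run on each of the 10, none changed direction. These 10 had the highest and lowest ratios of all sources, at least 2.51 or at most 0.487. The single denominators per library used here could not bring such ratios inside the fold, so this check was void for them. Sources nearer the fold did not all stay past it. The 31 lower became 9 relative to clean reads of 20 to 24 nt, and the 45 higher became 25 relative to reads of the same length. Intervals cover counting only.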
